A study of Mus musculus with 4 samples.

Results

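The genes described here are 8 regulators and markers of paraxial mesoderm, Tbx6, Foxc1, Foxc2, Meox1, Tcf15, Pax3, Twist1 and Pdgfra, and the binding sites of the transcription factor SCL (TAL1) assigned to them. A site, or peak, was taken where its summit had a transcription start site (TSS) of a member as the nearest protein-coding TSS, or where the peak lay within 10 kb of the gene body. Of 12885 peaks, 21 were taken, 17 by nearest TSS alone, 1 by the gene body alone and 3 by both, and the 8 genes stood among 22380 protein-coding genes. SCL was mapped by chromatin immunoprecipitation and sequencing (ChIP-seq) in mesoderm cells sorted for the receptor FLK1 from embryoid bodies at day 3.5. Embryoid bodies are aggregates in which embryonic stem (ES) cells differentiate, and these were made from wild-type J1 ES cells (C57Bl/6 X Sv129). All 4 libraries had this origin, 2 being precipitated with an in-house rabbit antiserum against SCL and 2 being input chromatin with no antibody. The peak list was called on the merged libraries, so no peak has a value per library and no spread between replicates could be given. A list of binding sites holds no RNA, so the label FLK1+ mesoderm could not be checked against marker genes.

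Paraxial mesoderm flanks the neural tube, passes through a presomitic state and segments into somites, from which the axial skeleton, skeletal muscle and dermis arise. Haematopoietic and endothelial progenitors come from other, FLK1+ mesoderm, and SCL is the basic helix-loop-helix factor required there for blood specification. SCL binds DNA with an E-protein partner at E-boxes and, through LMO2 and LDB1, stands beside GATA factors at paired half-sites. The study asked how mesoderm comes to a blood fate under SCL, and the comparison here gives where SCL lay around genes of the paraxial alternative.

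The DNA under the summits is given first, because it is what the peaks of different genes can be compared by. A composite of CTG followed by GATA, with 7 to 9 bases between them on either strand, lay within 50 bp of the summit in 9 of the 21 peaks, 42.9% of them. Among all 12885 peaks the share was 32.9%, which lies within the Wilson 95% confidence interval of the members (24.5% to 63.5%). There were 10 such sites at 5 genes, since peak 2 of Foxc2 held a pair of them. Each is shown on the strand that reads CTG before GATA, with 5 bases on both sides. CTG and GATA are in capitals, coordinates are mm9 and cover CTG to GATA, and peaks are numbered by genome position within each gene.
Tbx6 peak 1, chr7:133920237-133920252, plus strand: tgtctCTGagcacccgaGATAgcaga
Foxc1 peak 1, chr13:31812178-31812193, plus strand: acagaCTGgctttcctgGATAagctg
Foxc1 peak 4, chr13:32044942-32044957, plus strand: gaaacCTGgtccctactGATAcagag
Foxc1 peak 5, chr13:32120946-32120960, minus strand: acttcCTGggcagtggGATAagagc
Foxc2 peak 1, chr8:123694692-123694705, minus strand: tctgaCTGtatggcaGATAatctg
Foxc2 peak 2, chr8:123700313-123700327, plus strand: ctgagCTGggaggtgcGATAatggg
Foxc2 peak 2, chr8:123700341-123700354, plus strand: gaagtCTGgcctctaGATAggatg
Foxc2 peak 7, chr8:123786625-123786640, minus strand: ataccCTGggactgagaGATAagagc
Tcf15 peak 1, chr2:151981321-151981336, minus strand: gggctCTGgtcttaggtGATAagagg
Pdgfra peak 1, chr5:75676973-75676987, plus strand: gcttcCTGgcatcataGATAagatg

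The spacing was 9 bases in 5 sites, 8 in 3 and 7 in 2. Over all peaks the order was the same, with a composite of 9 bases in 18.3%, of 8 in 12.3% and of 7 in 3.60%. In 6 of the 10 sites the GATA was also part of a full GATA motif (AGATAA on either strand, with T also allowed as its first base and G as its last), so these matches overlap. The centres of the composites lay 3 to 39 bp from the summit. The site of Pdgfra was the closest and the first of the pair in Foxc2 peak 2 the farthest.

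The whole 101 bp window of the strongest peak is shown for the genes whose window lay outside annotated exons. Capitals mark composite half-sites, full GATA motifs and the E-box CAGCTG, on either strand, so that TATC is GATA read from the other strand. Of the 6 windows, 3 had a full GATA motif within a composite, 1 a composite alone, 1 CAGCTG and 1 none of these.
Foxc1 peak 5, chr13:32120940-32121040, plus strand: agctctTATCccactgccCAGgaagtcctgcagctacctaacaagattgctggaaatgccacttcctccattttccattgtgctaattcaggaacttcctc
Foxc2 peak 7, chr8:123786599-123786699, plus strand: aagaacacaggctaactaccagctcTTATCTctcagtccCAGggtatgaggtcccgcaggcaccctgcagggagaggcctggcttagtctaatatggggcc
Meox1 peak 1, chr11:101780117-101780217, plus strand: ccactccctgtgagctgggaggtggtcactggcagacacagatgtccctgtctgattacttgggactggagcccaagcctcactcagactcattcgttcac
Tcf15 peak 1, chr2:151981290-151981390, plus strand: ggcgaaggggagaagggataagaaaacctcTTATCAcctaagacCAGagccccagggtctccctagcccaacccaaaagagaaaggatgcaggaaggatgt
Pax3 peak 2, chr1:78178586-78178686, plus strand: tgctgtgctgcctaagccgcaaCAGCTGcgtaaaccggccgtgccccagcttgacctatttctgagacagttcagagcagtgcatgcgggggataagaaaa
Pdgfra peak 1, chr5:75676927-75677027, plus strand: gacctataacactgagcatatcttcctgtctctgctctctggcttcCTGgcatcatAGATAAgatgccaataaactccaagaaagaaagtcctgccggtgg

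Full GATA motifs were in 13 of the 21 windows, 61.9% against 73.2% of all peaks, with a Wilson interval of 40.9% to 79.2%. E-boxes (CANNTG) were in 8 windows, 38.1% against 52.6%, with an interval of 20.8% to 59.1%. The E-box CAGCTG, itself a kind of CANNTG, was in 3 windows (14.1% of all peaks had it), at Foxc2 peaks 4 and 6 and Pax3 peak 2. Neither E-box, GATA nor composite was found in 2 windows, Foxc2 peaks 3 and 9, while 10.3% of all peaks had none. Each share of all peaks lay within the interval of the members. The intervals treat peaks as independent, although 10 of the 21 lie at a single locus.

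**Figure D1:**
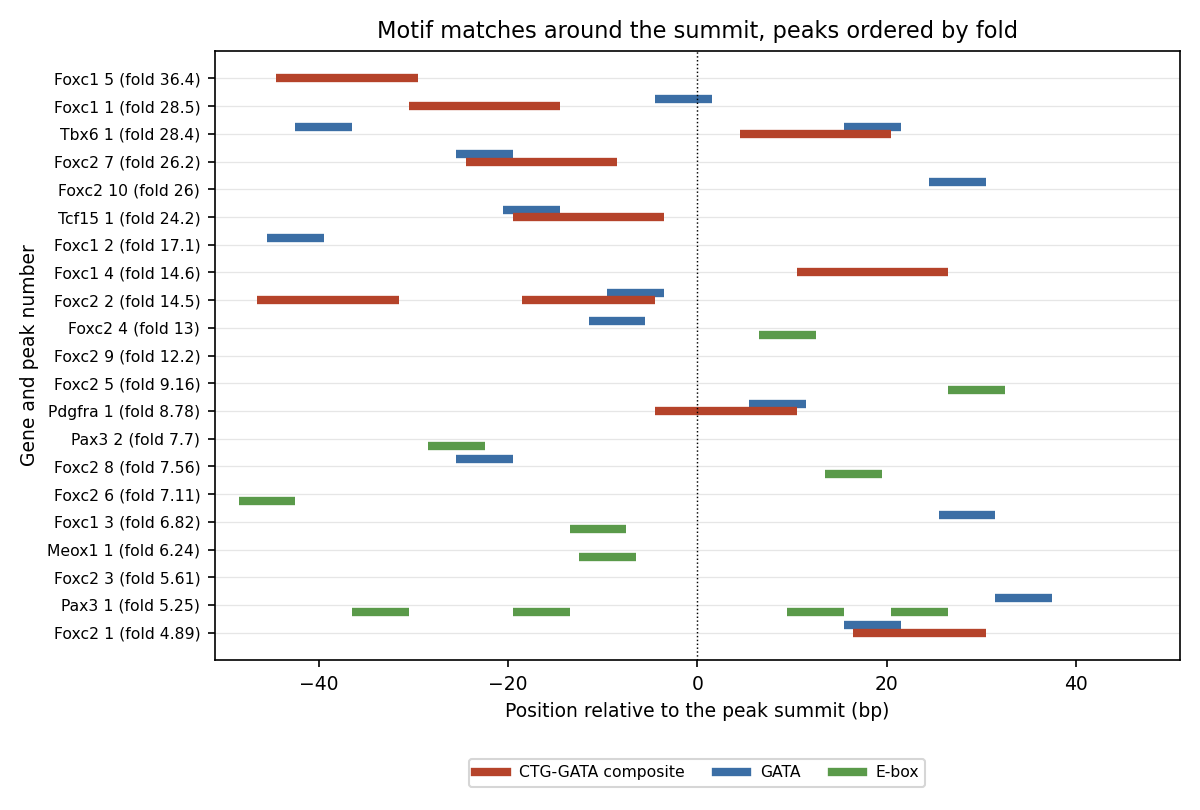
Position of motif matches relative to the summit (x axis, bp) in the 21 peaks, ordered by fold enrichment from the lowest at the bottom to the highest at the top (y axis, gene and peak number). Bars span the CTG-GATA composite, full GATA motifs and E-boxes. Composites appear in 5 of the 6 peaks with a fold of at least 20 (43.6% of all such peaks in the list), and E-boxes in 7 of the 10 with a fold under 10 (51.5% of all such peaks).

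Strength is given as fold enrichment, the authors' ratio of ChIP fragments at the summit to the local background, with 1 added to both. An interval for counting error was derived from the number of fragments (pileup) alone. It takes the background as exact, so it leaves out error in the background and is too narrow by that part. The 21 peaks had a median fold of 12.2, with a range of 4.89 to 36.4, and the median of all peaks was 11.1. A fold of at least 10 was reached by 11 peaks, 52.4% (Wilson interval 32.4% to 71.7%), where 56.6% of all peaks reached it. A −log10 q of at least 50 was reached by 12, 57.1% (36.5% to 75.5%), where 40.6% of all did. Both shares of the list lay within the intervals. Both the pileup (median 81 fragments against 53) and the background (5.65 against 3.67) were higher in the members, and without Foxc2 they were 65 and 4.62. In 9 peaks the interval of the fold lay above the median of all peaks, in 9 below it, and in 3 across it. No member had a fold of 100, a level reached by 215 peaks of the list, only 1.67% of them.

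**Figure D2:**
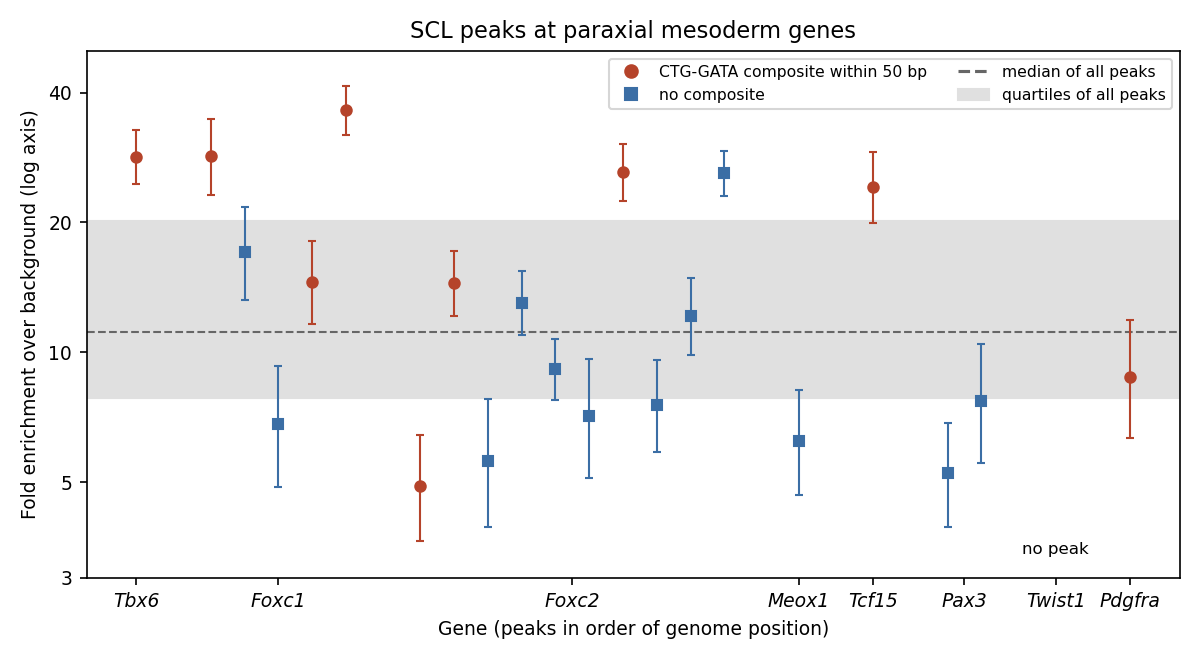
Fold enrichment (y axis, log scale) of each SCL peak assigned to the 8 genes (x axis), with bars for the Poisson 95% counting interval, in genome order within a gene. The dashed line and band are the median (11.1) and quartiles (7.84 and 20.1) of all 12885 peaks; Foxc1 peak 5 stands highest at 36.4 and Twist1 has no peak.

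Tbx6 is the T-box factor that commits nascent mesoderm to the paraxial fate. Its peak, at chr7:133919856-133920609, had a fold of 28.4 (95% counting interval 24.5 to 32.7) from 191 fragments on a background of 5.76. The fold was above that of 83.8% of all peaks. The summit lay 4765 bp upstream of the TSS of Tbx6, which is on the plus strand at chr7:133924997-133929074. It was also 100 bp from the TSS of Gm9967, in an exon of that gene, and 237 bp from a TSS of Ypel3, so Tbx6 took it only through the 10 kb rule. The next peak, 20.9 kb upstream of the gene, had a fold of 6.96 and Mapk3 as its nearest gene.

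Foxc1 and Foxc2 encode related forkhead factors, which act together in presomitic mesoderm and somites and also in vessels and heart. Foxc1, at chr13:31898515-31902504 on the plus strand, had 5 peaks on both sides of the gene. Peak 1, at chr13:31812047-31812364 and 86307 bp upstream of the TSS, had a fold of 28.5 (23.2 to 34.8) from 97 fragments. Peak 2, at chr13:31885130-31885787 and 12938 bp upstream, had a fold of 17.1 (13.3 to 21.7) from 65 fragments. The other 3 lay downstream in introns of Gmds, a gene encoding an enzyme of GDP-fucose synthesis. Peak 3, at chr13:32000252-32000635 and 101982 bp from the TSS, was the weakest with a fold of 6.82 (4.88 to 9.30) from 38 fragments. Peak 4, at chr13:32044771-32045059 and 146416 bp from the TSS, had a fold of 14.6 (11.6 to 18.1) from 81 fragments. Peak 5, at chr13:32120833-32121173 and 222475 bp from the TSS, had a fold of 36.4 (31.8 to 41.4) from 226 fragments. It had the highest fold of all 21 and ranked 1501 in the whole list. Its interval overlapped that of the Tbx6 peak and that of peak 1, so their order is not resolved. It overlapped that of no other Foxc1 peak, and the intervals of peaks 2 and 4 overlapped each other. The site with the highest fold was thus also the one farthest from the gene.

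Foxc2, at chr8:123640071-123642792 on the plus strand, had 10 peaks, more than any other member. All lay downstream, from 54604 to 200014 bp past the TSS, within 145.4 kb, and their folds ran from 4.89 to 26.2 with a median of 10.7. The first, at chr8:123694547-123694811, was the weakest of all 21 with a fold of 4.89 (3.65 to 6.41) from 50 fragments, although it held a composite. Peak 2, at chr8:123700232-123700591, had a fold of 14.5 (12.2 to 17.1) from 135 fragments. Peak 3, at chr8:123711513-123711930, had a fold of 5.61 (3.93 to 7.77) from 34 fragments, the fewest among the members. Peak 4, at chr8:123715542-123716033, again had 135 fragments and a fold of 13.0 (10.9 to 15.4). The first 4 peaks thus alternated between weak and moderate within a short stretch, with 3.95 to 11.4 kb between neighbouring summits.

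Further from Foxc2, peak 5 at chr8:123724831-123725415 had 148 fragments on the highest background of the members, 15.3, and a fold of 9.16 (7.76 to 10.8). Peak 6, at chr8:123753257-123753812, had a fold of 7.11 (5.10 to 9.65). Peaks 7 and 8 stood side by side, with summits 470 bp apart, but differed in strength. Peak 7, at chr8:123786502-123786877, had a fold of 26.2 (22.4 to 30.3) from 173 fragments, and peak 8, at chr8:123786980-123787277, one of 7.56 (5.87 to 9.59) from 66, with intervals that did not overlap. The former held a composite, the latter an E-box and a GATA motif without the composite spacing. Peak 9, at chr8:123825738-123826118, had a fold of 12.2 (9.85 to 14.9) with none of the motifs. Peak 10, at chr8:123839313-123840503, was the widest (1191 bp) and deepest (284 fragments) of all 21, with a fold of 26.01 (23.1 to 29.2), and held a GATA motif and no composite. The intervals of peaks 7 and 10 overlapped, and both were above those of the other 8.

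The count at Foxc2 rests on an annotation. Foxl1, another forkhead gene, starts 11.8 kb past the TSS of Foxc2 and so lies nearer to all 10 peaks. GENCODE vM1 lists it as a pseudogene and it was therefore no protein-coding TSS, while the RefSeq table of a later build lists it as protein-coding. Counting Foxl1 as coding left Foxc2 with 0 peaks, and the 8 genes with 11 peaks at 6 genes. All 10 peaks also fall within Gm20388, annotated as 1 gene of 4.43 Mb across many neighbours, and in its introns. The local background at the 10 peaks had a median of 8.12 fragments. It was 5.24 for all peaks of chromosome 8, 4.72 for those of chromosome 1 and 3.67 for those of the other chromosomes. Fold is measured relative to that background, whose part in the number of peaks found was not tested.

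**Figure D3:**
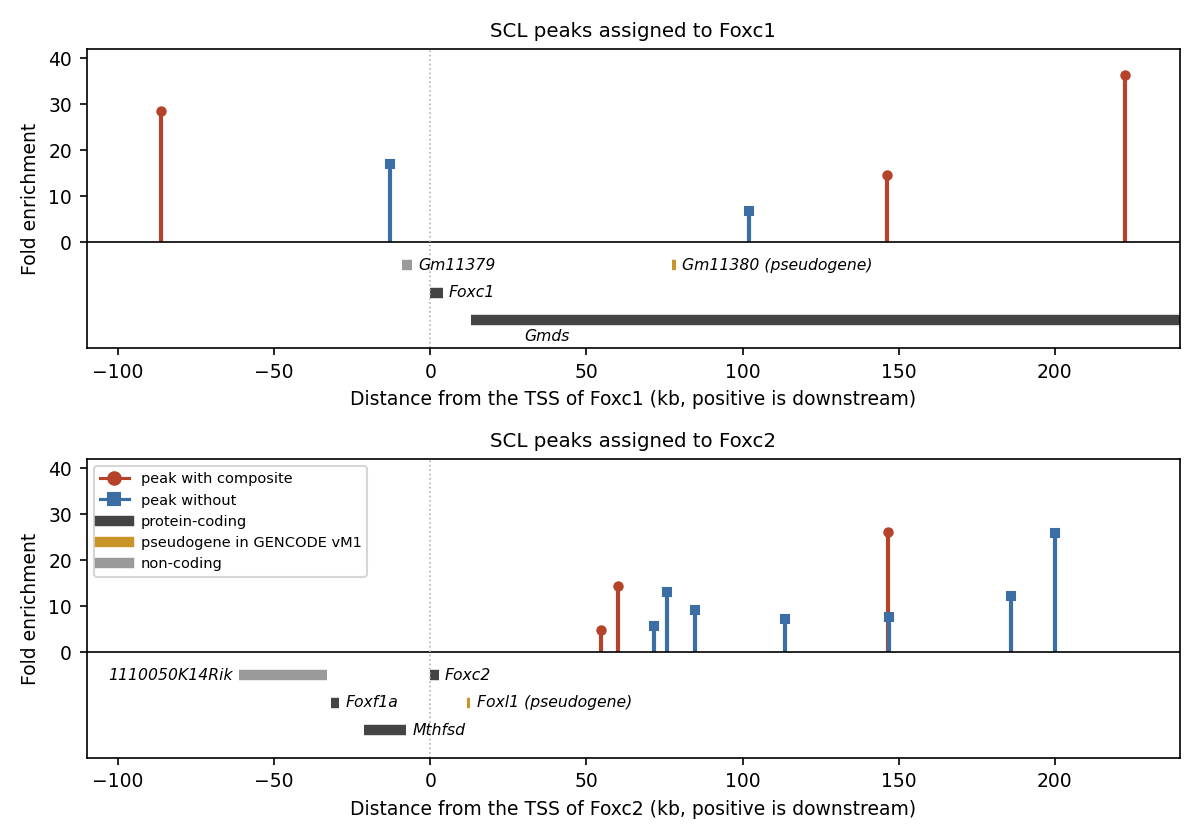
SCL peaks assigned to Foxc1 (top) and Foxc2 (bottom), by distance from the TSS in kb (x axis, positive is downstream) and fold enrichment (y axis, height of the stems); bars under the line are annotated genes, without Gm20388. Foxc1 has peaks on both sides, up to 222.5 kb away, and all 10 peaks of Foxc2 stand beyond Foxl1.

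Meox1, Tcf15, Pax3 and Twist1 are transcription factors of the somite. Meox1, a homeodomain factor of early somites, had 1 peak at chr11:101780029-101780376, in intergenic sequence 24479 bp upstream of its TSS. The fold was 6.24 (4.68 to 8.16) from 51 fragments on a background of 7.34, and only 7.82% of all peaks were weaker. Its window held an E-box and no GATA motif. A pseudogene, Rpl27-ps2, had a TSS nearer to the summit, at 20648 bp.

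Tcf15 (Paraxis), a basic helix-loop-helix factor needed for somites to become epithelial, had 1 peak at chr2:151980999-151981556. It had 112 fragments on a background of 3.67 and a fold of 24.2 (19.97 to 29.1), above 80.1% of all peaks. The summit was 12043 bp from the TSS and 6507 bp past the end of the gene, with a composite close to it. This fold exceeded those of Meox1 and Pax3, with intervals that did not overlap.

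Pax3, a paired-box factor of presomitic mesoderm, dermomyotome and muscle precursors, was the one member with peaks inside the gene. Peak 2, at chr1:78178459-78178956, lay in an intron 14777 bp from the TSS with a fold of 7.70 (5.53 to 10.5) from 39 fragments. Peak 1, at chr1:78138267-78138696, lay in an intron 55024 bp from the TSS with a fold of 5.25 (3.93 to 6.87) from 51 fragments on a background of 8.91. The intervals overlap, and both lay under the median of all peaks. Peak 1 held 4 E-boxes and 1 GATA motif, and peak 2 held CAGCTG.

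Twist1, a basic helix-loop-helix factor of mesenchyme, somites and limb buds, had no peak by either rule. The closest summit lay 104.4 kb upstream, with a fold of 10.5 and Ferd3l as the nearest gene, and the closest downstream was 345.6 kb past the gene end. As the list keeps only peaks that passed the authors' threshold in merged libraries, weaker binding at Twist1 was not measurable here.

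Pdgfra, a receptor tyrosine kinase used as a surface marker of paraxial mesoderm, had 1 peak at chr5:75676845-75677137. It was 124786 bp downstream of the TSS and 82.7 kb past the gene end, in intergenic sequence. The fold was 8.78 (6.34 to 11.9) from 40 fragments, an interval that holds the median of all peaks. A small nuclear RNA gene, U6, had a TSS nearer to the summit, at 91193 bp. The next peak beyond it, 234.9 kb past the gene end with a fold of 18.6, had Kit as its nearest gene.

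Most of the 21 peaks lay far from protein-coding TSSs, a description only, since the distance to a protein-coding TSS entered the choice of peaks. Of the 21 summits, 16 were more than 50 kb from any protein-coding TSS, where 32.5% of all peaks were. Foxc2 supplied 10 of the 16, and of the other 11 peaks 6 were as far (54.5%). The Wilson interval of that share was 28.0% to 78.7%. It is not read against the share of the list, since the rule itself used the distance. The median distance was 84.9 kb with Foxc2 and 55.0 kb without it, against 24.1 kb for all peaks. Without regard to Gm20388, 15 peaks lay outside protein-coding genes, 71.4% (Wilson interval 50.04% to 86.2%), and 54.7% of all peaks did, a share within that interval. Here too 10 of the 15 were at Foxc2, and without them the share was 5 of 11 (45.5%, interval 21.3% to 72.0%), which also holds the share of the list. Seen from the genes, no member had a summit within 1 kb of a TSS (4.25% of all genes had one), and 3 had a summit within 10 kb of the gene body (25.3% of all genes). The median distance from a gene's TSS to the nearest summit was shorter at the members, 19.6 kb against 62.0 kb for all protein-coding genes. Relative to the member's own TSS, 17 peaks were downstream and 4 upstream, and 9 were more than 100 kb away. All 10 peaks of Foxc2 were among the 17, and its peaks 6 to 10 were among the 9. No share of all peaks is given beside these counts, so no skew is read from them. The nearest-TSS rule admits a distant peak only where genes are sparse, and the stretch of genome nearest to a gene's TSSs had a median of 219.8 kb for the members and 45.6 kb for all genes.

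At least 1 peak was found for 7 of the 8 genes, against 34.1% of all protein-coding genes. At least 5 were found for Foxc1 and Foxc2 (2.53% of all genes) and at least 10 for Foxc2 alone (0.335% of all genes). Scaled to the stretch of genome nearest to them, the 8 genes had 12.5 peaks per Mb, where the genome had 4.85. Foxc2 had 46.1 per Mb, Tcf15 16.5, Foxc1 14.03, Meox1 11.01, Pax3 5.03 and Pdgfra 3.97. Twist1 had 0 in 222.8 kb, and Tbx6, with TSSs of other genes close on both sides, had 0 in 7.45 kb. These densities rest on the few peaks of each gene. Their Poisson 95% counting intervals held 4.85 for each member other than Foxc2 (22.1 to 84.8), whose count rests on the annotation of Foxl1. The intervals treat peaks as independent and are no test, since the genes were chosen with earlier results known. Without Foxc2 the other 7 genes had 7.21 per Mb.

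Peaks with a composite were the stronger ones among the members. The 9 with a composite had a median fold of 24.2 (range 4.89 to 36.4), and the 12 without one of 7.63 (range 5.25 to 26.01). Over all peaks the medians were 13.3 (4234 peaks) and 10.3 (8651 peaks). Of the 6 members with a fold of at least 20, 5 had a composite, the exception being Foxc2 peak 10, and of all peaks with such a fold 43.6% had one. Of the 10 with a fold under 10, 2 had one, at Foxc2 peak 1 and Pdgfra, and of all such peaks 25.8%. Without Foxc2 the medians were 26.3 (6 peaks) and 6.82 (5 peaks). The ranges overlap, and no test was made over the members.

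Genes from 4 other lists give the setting. They were counted by the same rules with protein-coding TSSs only. Of 14 genes of the segmentation clock and presomitic mesoderm, 5 had a peak, 35.7%, near the 34.1% of all genes. Cyp26a1, which degrades retinoic acid, had 9 with a highest fold of 79.4, Nrarp, a Notch feedback regulator, had 2 up to 5.10, and Ripply2 and Ripply1, which limit TBX6 activity at segment borders, had 1 each with folds of 37.8 and 17.2. Of 17 genes of somite, sclerotome and myotome, 11 had a peak (64.7%), led by Irx3 with 7 (highest fold 67.2), Pax7 with 5 (32.2), Eya1 with 3 (16.6) and Six2 with 2 (12.1). The median strongest fold per gene with a peak was 17.2 and 12.1 in these lists, and 24.2 at the 7 paraxial genes with a peak. Without Foxc2, whose count rests on the annotation of Foxl1, the middle genes were Pdgfra (8.78) and Tcf15 (24.2). That span holds the medians of both other lists. Cyp26a1 and Irx3 reached higher folds than any of the 8. The fold of Ripply2 lay within the counting interval of Foxc1 peak 5, so their order is not resolved.

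Of 11 cardiac regulators, 9 had a peak (81.8%), with Tbx5 at 7 (highest fold 40.9), Mef2c at 6 (12.4), Gata4 at 5 (83.4) and Gata6 at 5 (63.6), and the median strongest fold was 31.9. All 12 blood regulators had peaks, led by Runx1 with 16 (298.0), Cbfa2t3 and Zfpm1 with 14 each (236.6 and 152.4) and Fli1 with 9 (128.0). Their median strongest fold was 135.4, and 12 of their 85 peaks had a fold of at least 100. The 8 genes had 0 such peaks, as did each of the other 3 lists, and 1.67% of all peaks reached that fold. A summit lay within 1 kb of a TSS at 6 of the blood genes, 2 of the clock and presomitic genes, and 0 of the somite, cardiac and 8 paraxial genes. Per Mb, the blood genes had 49.9 peaks nearest to them, the cardiac genes 9.47, the clock and presomitic genes 10.8 and the somite genes 5.48. The composite was in 32.9% of peaks at the blood genes, 28.6% at the clock and presomitic genes, 28.0% at the somite genes and 12.9% at the cardiac genes.

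**Figure D4:**
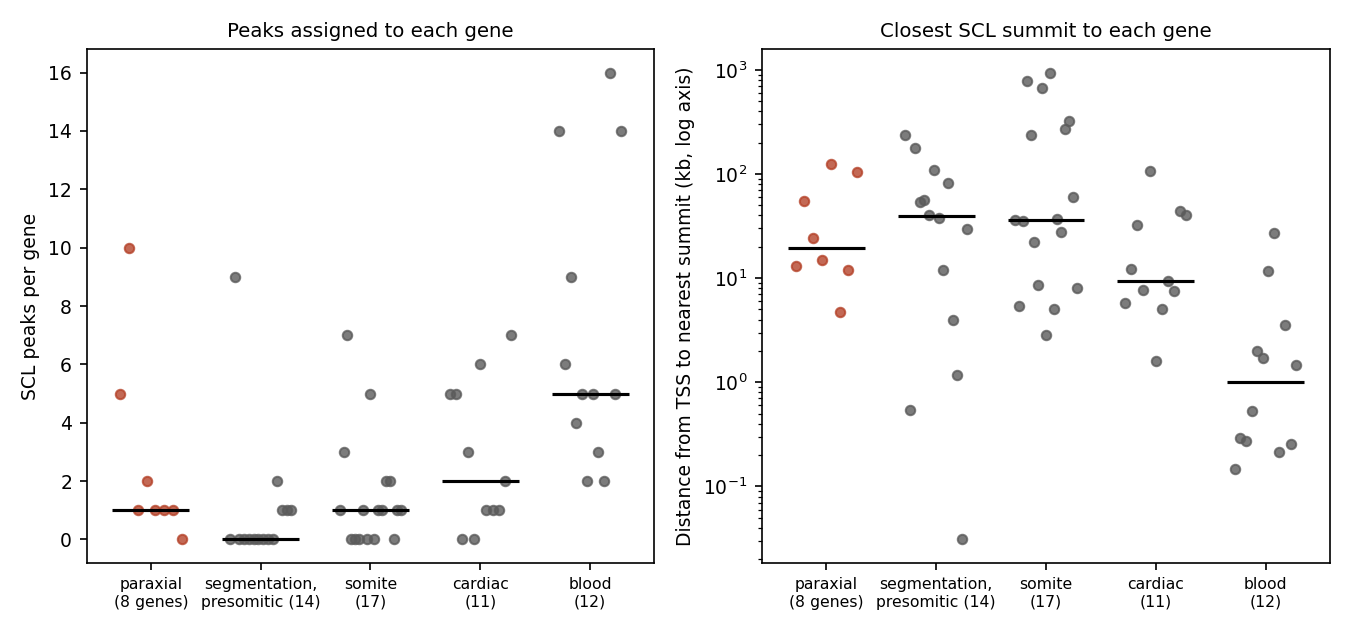
SCL peaks assigned to each gene (left, y axis, count) and distance from a TSS to the nearest SCL summit (right, y axis, kb, log scale) for the 8 paraxial genes and 4 other lists (x axis, number of genes in brackets). Each point is a gene and each line a median; the paraxial genes have a median of 1 peak and 19.6 kb, the blood genes 5 peaks and 1.01 kb.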

How the data were processed

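Libraries were grouped by their titles as SCL ChIP (2) or input (2). The authors aligned paired reads to mm9 with Bowtie 1.1.2, removed duplicates, and called peaks with MACS2 2.0.10 at a q of 0.01 on merged libraries, with a list set by the irreproducible discovery rate. The whole deposited list was used, which is longer than the set of bound loci that the study counts. It gives for each peak its position, its fold (the ratio of pileup to background, each with 1 added) and its deposited −log10 p and −log10 q. It also gives a score that equalled 10 times the −log10 p in 100% of peaks and was not used. Library depths were not given in the sources used here. Pileup and background were recovered by solving MACS2's fold and Poisson p together, which matched within 0.001 in 99.9% of peaks. They give the depth behind each fold. Poisson 95% intervals cover counting error only, and those of the fold cover that of the pileup, with the background taken as exact.

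Distances were measured from the summit to 70064 TSSs of 22380 protein-coding genes in GENCODE vM1 (NCBIM37, the build of mm9), and positions count from 1. Motifs were searched on both strands in 101 bp around the summit. The members and lists were chosen with earlier results of these data known, so no test was made over them. Every peak of the 8 genes is named, and of the other lists at most 4 genes with the most peaks and then the highest fold. The summit window of Tbx6 lies in an exon and is shown only as its composite. RefSeq was used only for gene type. Scripts (Python 3.11.15, numpy 2.4.6, pandas 2.3.3, scipy 1.17.1, matplotlib 3.10.9) were tested on simulated data. Alternatives were other TSS sets, distances, thresholds and motif windows.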

Additional observations from a re-analysis of the deposited data

How the results depend on the processing

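Of 78 alternative values, 64 stayed within the spread set for them (1.5 times a count, or the interval of a median or share), 25 of these being equal to the value reported. The 21 peaks became 4 with TSSs of every gene type and 4 by distance to the gene body only, each time at 3 genes. With a fold of at least 10 they became 11 peaks at 4 genes, of which 63.6% had the composite and 9.09% an E-box. With a −log10 q of at least 50 they became 12 peaks at 4 genes, and 16.7% had an E-box. A motif window of 25 bp on each side gave the composite in 23.8%. Added after seeing the data, counting Foxl1 as protein-coding gave 11 peaks, as did leaving out the peaks of Foxc2. The median fold ranged from 9.16 to 15.96 under settings that do not select on strength. It was 24.2 with a fold of at least 10 and 20.7 with a −log10 q of at least 50, which keep the stronger peaks by construction. Both values count among the 64 only because the interval of the median is wide, from 7.11 to 24.2. With TSSs of every gene type Foxc1, Foxc2, Meox1 and Pdgfra had 0 peaks. All of theirs were nearer to genes that GENCODE vM1 lists as non-coding or as pseudogenes. At Foxc2 that gene was Foxl1, which RefSeq lists as protein-coding.

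No paired analysis was possible because peaks were called on merged libraries, without values for those numbered 1 and 2, and leaving out a replicate was not run for the same reason. A peak of 34 fragments, the fewest here, has a counting interval of 23.5 to 47.5, so the order of the weak peaks is not resolved. Assignment by distance does not show which gene a site acts on.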

Other observations

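The composite and the E-box did not occur together within 50 bp of a summit at these genes, a pattern noticed after the values were seen. None of the 9 peaks with a composite held an E-box in that window, whereas 8 of the 12 without one did. Over all 12885 peaks the E-box was in 50.8% of those with a composite and in 53.4% of those without. The pattern did not hold in windows of 100 bp on each side, where 5 of the 11 member peaks with a composite also held an E-box (45.5%, against 73.6% over all peaks). Of the 8 member peaks with an E-box 7 had a fold under 10, the exception being Foxc2 peak 4 at 13.0, and of the 13 without an E-box 3 did. Over all peaks the shares with a fold under 10 were 42.5% with an E-box and 44.4% without. This was not tested, since the 21 peaks were chosen by gene and 10 of them share a locus.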
